A study of Mus musculus with 32 samples.

Results

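The 75 cytosolic ribosomal protein genes of this mouse mammary tumour series are the genes whose symbol is Rpl or Rps followed by a number, with an optional a or x, together with Rplp0, Rplp1, Rplp2 and Rpsa, and whose mean level over the 32 libraries was at least 5 CPM (counts scaled to a common library size). They were taken from a table of 24454 gene IDs, and 45 of them encode proteins of the large and 30 proteins of the small subunit. Of 76 symbols that fitted the pattern, Rpl29 was left out with a mean of 3.07 CPM, and Rpl28 lay just inside the limit with 6.81 CPM. No measured difference between stages or sites was used to choose them.

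RNA had been sequenced from 32 laser-captured patches of tissue of female mice that carried MMTV-PyMT together with R26-CBW and K8-CreERT2. All groups had all of these alleles, so the normal gland came from tumour-bearing animals too: PyMT is a viral oncogene driven by the MMTV promoter in mammary epithelium, and K8-CreERT2 switches on a Confetti colour, after tamoxifen, in cells expressing keratin 8. Every mouse had received 5 mg tamoxifen at 5 weeks of age, and tissue was taken once the tumour burden had reached its limit, at an age the labels do not state. The groups were normal gland (3 libraries: 1 from a tumour core and 2 from patches pooled over several places), hyperplasia (5: 3 core, 1 border, 1 outside the tumour), adenoma (8: 3 core, 3 border, 2 outside), carcinoma (9: 6 core, 3 border) and lung metastasis (7: 3 lung centre, 4 lung border). Libraries are called here by stage and by the number in their label. The labels speak of 3 animals without linking any patch to one, so some patches share an animal and the p-values given here, which are over patches, are too small.

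Ribosomal proteins and ribosomal RNA make up the 2 subunits of the ribosome, the small one reading the messenger RNA and the large one joining amino acids and holding the exit tunnel. Most of the proteins are needed in 1 copy per ribosome, the stalk proteins Rplp1 and Rplp2 in more, and the genes are among the most strongly expressed in dividing cells. In mammals their messages are known for starting with a C followed by a stretch of C and T, the terminal oligopyrimidine (TOP) motif, through which growth signals acting by mTORC1 and the protein LARP1 set how much of each message is translated. Ribosome production is known to increase in oncogene-driven growth, and free Rpl5 and Rpl11 are known to bind Mdm2 and so stabilise p53.

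The annotated start sites were searched for a looser pattern, a run of C and T near the start that need not begin with C or at the first base. RefSeq promoter windows of GRCm38.p6 were matched for 56 of the 75 genes, and 26 of these (46.4%) had an unbroken run of at least 6 bases, each C or T, on the coding strand between 5 bases before and 15 bases after the annotated start, against 17.5% of all 27025 genes with a window. The share was 41.2% of 34 large and 54.5% of 22 small subunit genes. Below are 30 bases around the annotated start, 15 before and 15 after, for some of the genes picked for known roles or high counts. A run of 6 or more is in capitals, searched from the 11th base on.
Rplp2: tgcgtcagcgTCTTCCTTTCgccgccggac
Rps6: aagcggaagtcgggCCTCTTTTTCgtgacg
Rps9: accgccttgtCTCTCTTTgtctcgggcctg
Rps24: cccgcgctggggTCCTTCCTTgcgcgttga
Rpl13a: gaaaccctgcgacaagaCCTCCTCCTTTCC
Rpl39: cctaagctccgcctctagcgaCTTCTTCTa
Rplp0: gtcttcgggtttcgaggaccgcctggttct
Rpl5: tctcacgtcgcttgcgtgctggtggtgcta
Rpl41: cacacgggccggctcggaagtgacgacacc
Rpsa: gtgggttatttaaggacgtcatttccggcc
The first 6 hold such a run and the last 4 do not in this window, which says nothing of starts used elsewhere. Rpl10, Rpl11, Rps3, Rps4x and Rps15, named below but not shown here, also held no run of 6. The windows lie at chr7:141447636-141447665 (Rplp2, plus strand), chr4:86857353-86857382 (Rps6, minus), chr7:3704026-3704055 (Rps9, plus), chr14:24490663-24490692 (Rps24, plus), chr7:45128731-45128760 (Rpl13a, minus), chrX:37085208-37085237 (Rpl39, minus), chr5:115559452-115559481 (Rplp0, plus), chr5:107900513-107900542 (Rpl5, plus), chr10:128549154-128549183 (Rpl41, minus) and chr9:120127751-120127780 (Rpsa, plus).

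Total counts per library ranged from 2688611 to 19585351, and 10258 to 17667 genes had a count. Between 5.20 and 78.9% (median 24.7%) of all counts went to 1 ID that has no symbol, which lowers the depth left for all other genes. The ribosomal protein genes had 100211 to 1538524 counts per library, and all 75 were counted in all 32 libraries. Luminal markers, which define the labelled epithelium, summed to between 1639 and 5582 CPM in each library. Levels are CPM scaled by trimmed mean of M values (TMM), and stages were compared by log2 fold changes of the edgeR quasi-likelihood fit over all libraries.

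In length-scaled terms, the genes at the top were those of the ribosomal stalk and a few short proteins. Rplp1, which with Rplp2 and Rplp0 forms the stalk that recruits elongation factors, had a mean of 4920 CPM per kb of transcript over the 32 libraries. Rpl41, the smallest ribosomal protein, had 4752, Rps14, which lies at the platform of the small subunit, 4295, Rpl32, a large subunit protein, 3644, and Rps15, which lies in the head of the small subunit, 2805 CPM per kb. Rplp2 stood at 2432 and Rplp0, whose protein anchors the stalk, at 1065 CPM per kb. At the bottom stood Rpl28 with 8.82, Rps23, which lies at the decoding centre, with 11.6, and Rps2, which lies at the entry of the message, with 20.3 CPM per kb. The 10 genes of highest counts gave 33.9% of all ribosomal protein counts on average, and the 10 of lowest counts 1.23%.

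The low end is uncertain because many members share sequence with other annotated genes. Of the 50-base windows of each coding sequence, a median of 93.2% also occurred in a transcript of another annotated gene. In 27 genes every window did. The 10 genes with under 50% of windows shared had a median level of 1770 CPM per kb, against 636 CPM per kb for the other 65, and 27 of those 65 lay below the lowest of the 10, Rps3 with 468 CPM per kb. Across genes, which are not independent, Spearman's rho between the share of shared windows and CPM per kb was -0.47, given as a description. Rpl7a shared windows with 120 other genes, Rpl21 with 82 and Rps2 with 71, and their levels were 105, 109 and 20.3 CPM per kb. Sharing did not always go with a low level. Rpl41 and Rps27 had every window shared, at 4752 and 1677 CPM per kb, and Rpl28, at 8.82, shared windows with 4 other genes. The labels do not say how ambiguous reads were counted, so levels of such genes, Rpl28 and Rps23 included, should be read as uncertain.

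**Figure D1:**
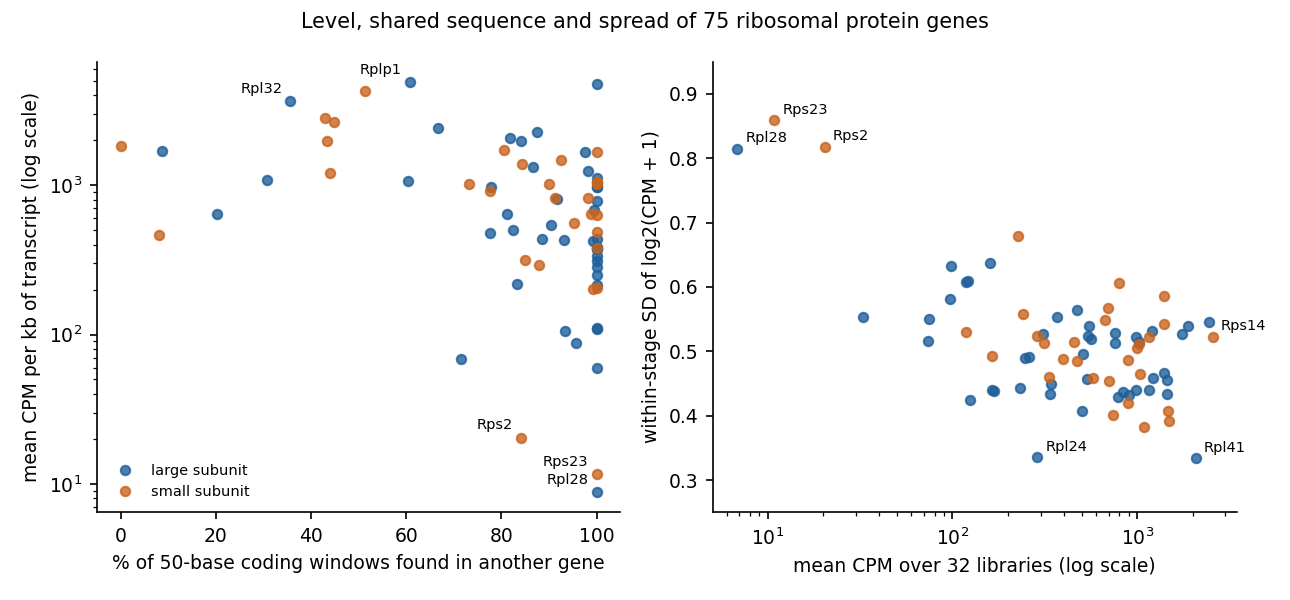
Left, mean CPM per kb of transcript (log scale) of each gene against the percentage of its 50-base coding windows that occur in another annotated gene; right, within-stage SD of log2(CPM + 1) against mean CPM (log scale). Each point is 1 of 75 genes, large subunit in blue and small in orange; all genes under 20 CPM per kb sit at 100% shared, and the 3 of highest SD (Rps23, Rps2, Rpl28) are among those of lowest counts.

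The summed level of the 75 genes was lowest in normal gland. The 3 normal libraries had 46206 (library 18), 26958 (28) and 37223 (30) CPM. Normal 28 and 30, pooled over several places, had 3002492 and 3818207 total counts, and normal 18, labelled as tumour core, had 9646523. The part of depth and pooling in these levels was not tested. The 5 hyperplasia libraries had 51633 (21), 49492 (44), 74647 (22), 30247 (33) and 57477 CPM (46). Adenoma ranged from 41424 to 66487 with a median of 54661, carcinoma from 35596 to 99306 with a median of 50733, and metastasis from 43383 to 76814 with a median of 52004 CPM. The means were 36796 ± 9631 (SD, n = 3), 52699 ± 15969 (n = 5), 55227 ± 9374 (n = 8), 56450 ± 20507 (n = 9) and 53287 ± 10969 CPM (n = 7). The stages overlapped: hyperplasia 33 lay below 2 of the 3 normal libraries, and carcinoma 53 and 38 lay below normal 18 and 30. Libraries within a stage differed widely, with a pooled within-stage SD of 0.38 on the log2 scale, and the highest library was 3.68 times the lowest. With DESeq2's size factors in place of TMM the normal mean was 46638 CPM, and the other means lay between 50793 and 53704 CPM. As a share of counts without the gene ID of highest share, the means were 6.21, 6.89, 7.61, 7.99 and 7.27% from normal to metastasis. In bulk patches, fewer cells of a type and less RNA per cell cannot be told apart.

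**Figure D2:**
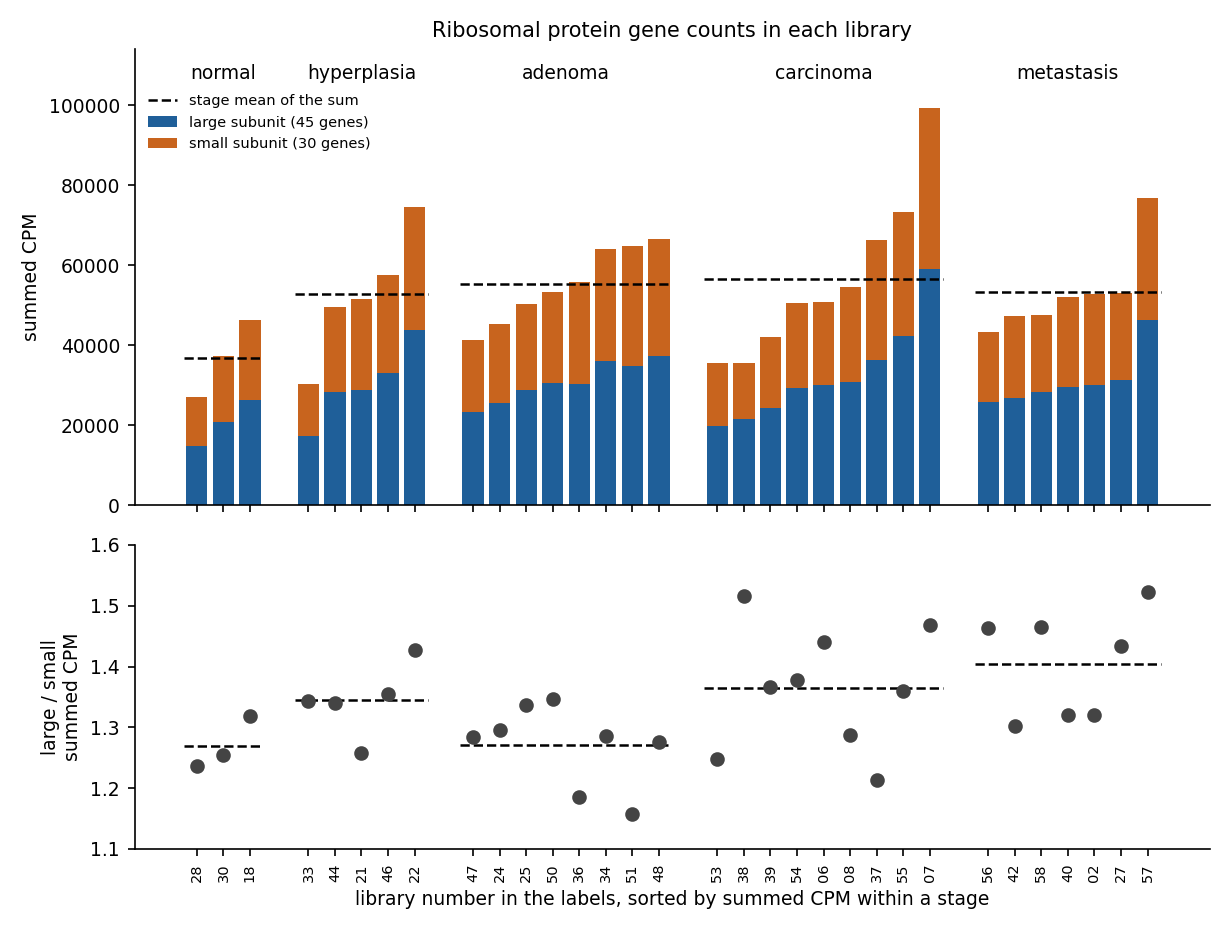
Top, summed CPM of 45 large (blue) and 30 small subunit genes (orange) in each library, stacked, with dashed lines at stage means of the sum; bottom, the ratio of large to small subunit CPM in the same libraries with stage means. The normal libraries lie between 26958 and 46206 CPM, carcinoma 07 reaches 99306 and metastasis 57 reaches 76814 CPM, and the ratio runs from 1.16 to 1.52.

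A single carcinoma patch carried much of the upper range. Carcinoma 07, a core patch, held the highest level of 29 of the 75 genes, while hyperplasia 22 held that of 11 and metastasis 57 that of 7. The lowest level of 30 genes lay in normal 28, of 17 in hyperplasia 33 and of 11 in carcinoma 38. Hyperplasia 22 had 10258 detected genes, the fewest of all libraries, and metastasis 57 had 12061, while carcinoma 07 had 15745.

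Hyperplasia against normal gland asks what accompanies the first step away from normal epithelium. All 75 genes had a higher fitted level in hyperplasia, and none passed the test. The median log2 fold change was 0.50 (large subunit 0.53, small subunit 0.48), against a median of 0 over the 19907 genes tested. By edgeR's quasi-likelihood test with Benjamini-Hochberg adjustment over all genes, 0 of 75 were called, against 0.00% of all genes tested. DESeq2 called 0 of 74, where 1 had no adjusted p, against 2.26% of all genes, and limma voom 0 of 75, against 0.527%. At an unadjusted p under 0.05 it was 9 of 75 (12%), beside 12.4% of all genes tested. All 9 were higher in hyperplasia, where 3.68% of all genes had such a p and a higher level. The 9 were not stable to single libraries: without hyperplasia 22 there were 0, without normal 28 there was 1, without normal 30 there were 2 and without hyperplasia 46 there were 4. With only the groups compared in the fit there were 0. The direction held under the other scalings. With DESeq2's size factors and with total counts the median was smaller, and the median of all genes was lower too. With DESeq2's size factors 56 of 75 were higher with a median of 0.11, where the median of all genes was -0.35. With total counts 66 were higher with a median of 0.19, where that of all genes was -0.31. With upper quartile scaling 75 were higher with a median of 0.61, where that of all genes was 0. In each scaling the family median lay above that of all genes. Without hyperplasia 22 the median was 0.25, without normal 28 it was 0.32, and without the 3 libraries of fewest detected genes it was 0.25 with 67 of 75 higher. With detected genes as a covariate it was 0.31 with 68 of 75 higher, and no member then had an unadjusted p under 0.05.

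The members of known extra-ribosomal or special roles listed in this paragraph had log2 fold changes from 0.38 to 0.93. Others with such roles, given in the next paragraph, lay lower, among them Rps3, Rplp2, Rpsa and Rplp1. Rpl5, which carries the 5S RNA into the large subunit, had 753, 335 and 267 CPM in normal 18, 28 and 30, and 890, 712, 1371, 377 and 940 CPM in hyperplasia 21, 44, 22, 33 and 46. Hyperplasia 33 stayed within the normal range and the other hyperplasia libraries, except 44, lay above it; the log2 fold change was 0.93 ± 0.41 (SE), with an edgeR adjusted p of 0.348, and it was 0.58 without hyperplasia 22 and 1.52 without normal 18. Its partner Rpl11 had 262, 129 and 197 CPM in the normal libraries and 299, 288, 397, 101 and 205 CPM in hyperplasia, in the same order. The groups overlapped, and the log2 fold change was 0.40 ± 0.45. Rps6, the substrate of the S6 kinases, had 364, 254 and 285 CPM in normal gland, and 355, 343, 552, 177 and 535 CPM in hyperplasia. Only hyperplasia 22 and 46 lay above all normal libraries, and the log2 fold change was 0.38 ± 0.42. Rps27a, made as a fusion with ubiquitin, had a log2 fold change of 0.87 ± 0.43 and Rps4x, an X-linked small subunit gene, 0.67 ± 0.40, which was 0.17 without hyperplasia 22. Rpl10, which joins the large subunit late, had 0.50 ± 0.37 and Rpl39, which lines the exit tunnel, 0.43 ± 0.36.

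The stalk genes lay at or under the family median. Rplp0 had 1186, 731 and 1274 CPM in normal 18, 28 and 30, and 1254, 1304, 2444, 872 and 1614 CPM in hyperplasia 21, 44, 22, 33 and 46. The log2 fold changes were 0.49 ± 0.35 for Rplp0, 0.35 ± 0.39 for Rplp1 and 0.22 ± 0.40 for Rplp2. Rps3, which lies where the message enters, was among the 3 smallest with 0.11 ± 0.36, beside Rps21 with 0.06 ± 0.37 and Rpl38, known for a role in skeletal patterning, with 0.12 ± 0.41. Rpsa, also known as a laminin receptor precursor, had 0.34 ± 0.40, and -0.04 by DESeq2.

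The largest fold change rested on 1 library. Rpl21 (chromosome 5, 146832890 to 146837032) had 73.0, 31.5 and 44.7 CPM in normal 18, 28 and 30, and 76.1, 53.5, 592, 64.7 and 108 CPM in hyperplasia 21, 44, 22, 33 and 46. Its level in hyperplasia 22 was the highest of all 32 libraries, and the next highest was 146 CPM in carcinoma 55. The log2 fold change was 1.84 ± 0.64 (edgeR adjusted p = 0.282), and without hyperplasia 22 it was 0.48. Next came Rpl7 with 0.97 ± 0.43 and Rps2 with 0.93 ± 0.98. Rpl4 (chromosome 9, 64173387 to 64178562), which lines the exit tunnel, was the only member whose hyperplasia libraries (796 to 1468 CPM) all lay above the normal ones (525 to 764 CPM), and was singled out after its values were seen. That is 1 of 75 genes, 1.33%, against 1.12% of the 23918 genes with a count; its log2 fold change was 0.79 ± 0.37 with an edgeR adjusted p of 0.374.

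**Figure D3:**
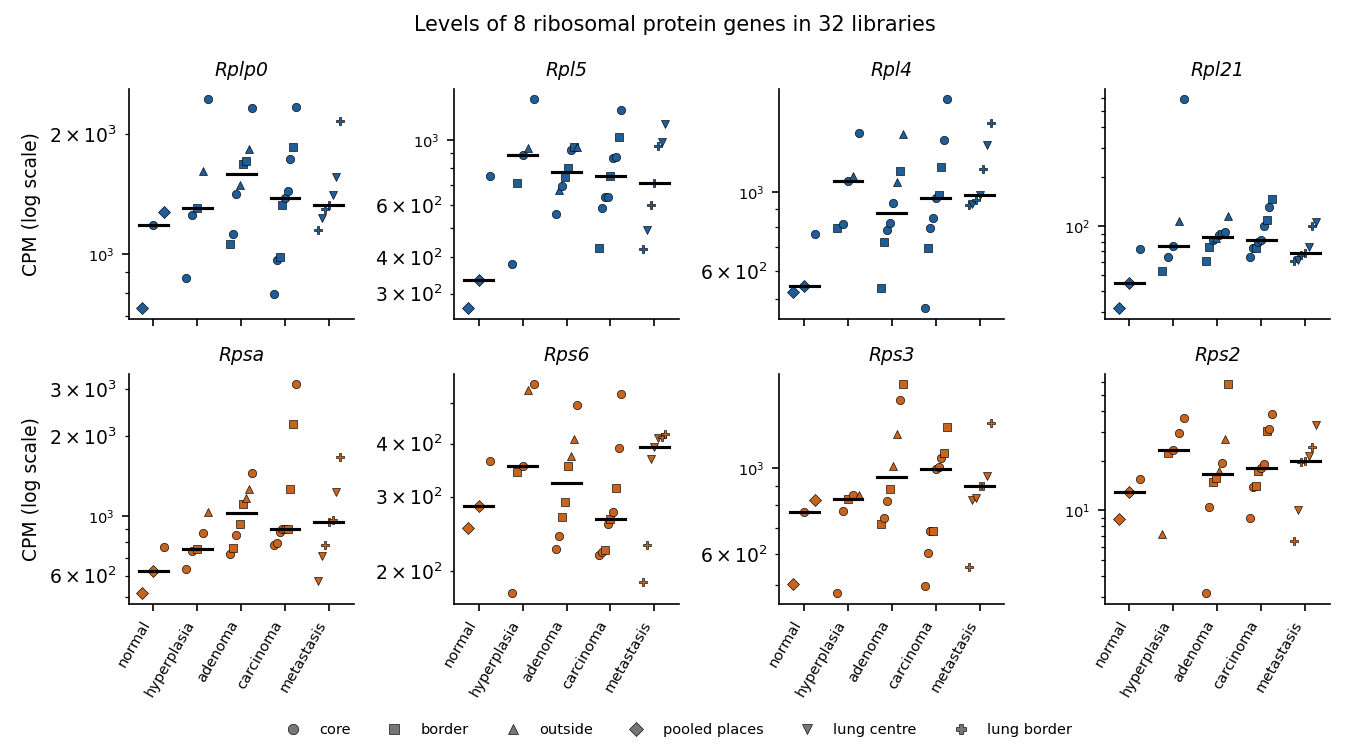
CPM (log scale, axes differ between panels) of 8 genes in each of the 32 libraries by stage, with the marker shape giving the labelled position and the bar the stage median. For Rpl21, hyperplasia 22 stands at 592 CPM while the other libraries lie at or under 146 CPM; for Rpl4 and Rpsa the normal libraries reach 764 and 768 CPM.

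Markers of other cell types differed in level between the same stages. Fibroblast and matrix genes summed to 1194 to 4393 CPM in normal gland and 211 to 1419 CPM in hyperplasia, with 9 of 10 lower and a median log2 fold change of -1.97. Adipocyte genes summed to 83.4 to 755 and 5.35 to 95.4 CPM (8 of 9 lower, median -2.07), and macrophage genes to 392 to 2979 and 82.1 to 959 CPM (7 of 8 lower, -1.67). Lymphocyte and plasma cell genes summed to 31.2 to 930 and 0.18 to 27.4 CPM, with 7 of 9 lower and a median of -4.14. Luminal genes summed to 1639 to 2269 CPM in normal gland and 1934 to 4596 CPM in hyperplasia (9 of 10 higher, 0.88), and proliferation genes to 241 to 345 and 520 to 1571 CPM (10 of 10 higher, 1.56). None of these genes was called in this comparison by edgeR, and their part in the ribosomal protein values was not tested.

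Other genes of the translation machinery were also higher in hyperplasia without passing the test. Of 22 translation initiation genes 21 were higher, with a median log2 fold change of 1.09. Of 16 genes of elongation and of other TOP messages 14 were higher (median 0.60), and of 36 genes of ribosome biogenesis and RNA polymerase I 24 (0.44). Mitochondrial ribosomal protein genes, which serve a separate ribosome, were higher for 68 of 78 with a median of 0.89. In carcinoma against normal gland the same lists had medians of 0.91, 0.61, 0.47 and 0.66. No gene of these 4 lists was called in any stage comparison.

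From hyperplasia on, the family median stayed near 0. In adenoma against hyperplasia 47 of 75 genes were higher and the median was 0.08, against 0.06 over all genes tested. None was called by edgeR (0.00% of all genes tested), DESeq2 (2.82%) or limma voom (0.0100%), and 1 had an unadjusted p under 0.05, beside 14.8% of all genes. That gene was Rpl21, with -1.06 ± 0.46, for which hyperplasia 22 is again the high library, and without it the value was 0.19. Rps3 had the largest positive log2 fold change, 0.49 ± 0.28, followed by Rpl31 with 0.48 ± 0.43 and Rps24, known from Diamond-Blackfan anaemia, with 0.43 ± 0.26. The median turned to -0.01 with upper quartile scaling, with 35 of 75 higher, and to -0.05 without hyperplasia 33, and it was 0.24 without hyperplasia 22.

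In carcinoma against adenoma 35 of 75 genes were higher and the median was -0.01, against 0.02 over all genes tested. The large subunit median was 0.07 and the small subunit median -0.09, a difference of subunits that was not tested. None was called by edgeR (0.00% of all genes tested), DESeq2 (1.23%) or limma voom (0.0352%), and 2 had an unadjusted p under 0.05, beside 12.6% of all genes. These were Rpl10a, known from ribosomes that differ in their protein makeup, and Rpl19, with 0.52 ± 0.26 and 0.49 ± 0.24 and edgeR adjusted p-values of 0.384 and 0.395. Rpl10a ranged from 307 to 549 CPM with a median of 468 in adenoma, and from 375 to 1244 with a median of 532 CPM in carcinoma, where library 07 was highest. Rpl38 had 0.50 ± 0.27, and at the other end stood Rpl31 with -0.58 ± 0.36, Rps23 with -0.57 ± 0.81 and Rps25 with -0.46 ± 0.27. The median's sign depended on the setting, with 0.11 and 53 of 75 higher under total counts, 0.16 and 57 higher with detected genes as a covariate, and -0.15 without carcinoma 07.

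In lung metastasis against carcinoma 34 of 75 genes were higher and the median was -0.05, against -0.01 over all genes tested. None was called by edgeR (0.0151% of all genes tested), DESeq2 (0.886%) or limma voom (0.0954%), and 0 had an unadjusted p under 0.05, beside 10.9% of all genes. The 3 genes called over the whole table were all lung epithelial markers, Sftpc, Sftpb and Sftpa1. The summed lung epithelial markers were 415 to 4587 CPM in metastasis and 0.59 to 46.3 CPM in carcinoma. Erythroid genes, those of red blood cells, summed to 106 to 18867 CPM in metastasis, highest in library 56, and to 5.34 to 1211 CPM in carcinoma. The part of both sets of markers in the ribosomal protein values was not tested. Rpl36 had -0.55 ± 0.32, Rps15 -0.46 ± 0.30 and Rps4x -0.44 ± 0.27, while Rps23 had 0.59 ± 0.83. Without carcinoma 07 the values of Rpl36 and Rps15 were -0.16 and -0.05, and without carcinoma 37 that of Rps4x was -0.23. Rps15 ranged from 851 to 5383 CPM with a median of 1191 in carcinoma, where library 07 was highest, and from 920 to 1801 with a median of 1210 in metastasis. Under total counts the median over the 75 genes was -0.20 with 10 of 75 higher, where the median of all genes was -0.21. With DESeq2's size factors it turned to 0.02 with 45 of 75 higher, where that of all genes was 0.04. Without carcinoma 07 it turned to 0.09, where that of all genes was -0.003.

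Carcinoma against normal gland shares the normal libraries with the comparison of hyperplasia with normal gland, and the carcinoma libraries with those of carcinoma with adenoma and of metastasis with carcinoma. Here 74 of 75 genes were higher, with a median of 0.62 (large subunit 0.63, small subunit 0.56), against 0.10 over all genes tested. None was called, against 0.00502% of all genes tested, nor by DESeq2 (0.837%) or limma voom (1.59%). Of the 75, 15 (20%) had an unadjusted p under 0.05, beside 8.17% of all genes. All 15 were higher in carcinoma, where the share of all genes with an unadjusted p under 0.05 and a higher level was 2.45%. That count was 0 without normal 28, 8 without normal 30 and 27 without normal 18, and it was 5 without carcinoma 07, 8 without carcinoma 37 and 9 without carcinoma 55. With only the groups compared in the fit it was 3. With DESeq2's size factors 61 of 75 were higher with a median of 0.18, where that of all genes was -0.31, and none had an unadjusted p under 0.05. Fibroblast (10 of 10), basal (10 of 10), macrophage (8 of 8) and adipocyte genes (8 of 9) were lower in the same comparison. Luminal (10 of 10) and proliferation genes (10 of 10) had higher fitted levels, with none called. The luminal sum was 2491 to 5433 CPM in carcinoma and 1639 to 2269 in normal gland, and the proliferation sum 262 to 1080 CPM and 241 to 345. The part of these markers in the ribosomal protein values was not tested.

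Rpsa (chromosome 9, 120127766 to 120132369) had 768, 515 and 627 CPM in normal 18, 28 and 30. In carcinoma it ranged from 783 to 3124 with a median of 900 CPM. Every carcinoma library lay above every normal library, as for 1 of 75 members (1.33%) and 0.744% of the 23918 genes with a count, and the log2 fold change was 1.04 ± 0.39 with an edgeR adjusted p of 0.390. Carcinoma 07 was the highest, and without it the log2 fold change was 0.76, while DESeq2's size factors gave 0.56. Rpl14 had 1.06 ± 0.40 and Rpl36 0.96 ± 0.45, and without carcinoma 07 these were 0.67 and 0.56. Rpl13a, also known as part of an interferon-induced translational repressor, had 0.92 ± 0.37, Rpl5 0.80 ± 0.38 and Rpl41 0.64 ± 0.27, and the value of Rpl5 was 1.39 without normal 18. At the low end stood Rps6 with -0.00 ± 0.38, Rps21 with 0.08 ± 0.34 and Rps16 with 0.14 ± 0.48. Rps6 had a carcinoma median of 266 CPM, between the normal values of 254 and 285 CPM of libraries 28 and 30.

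**Figure D4:**
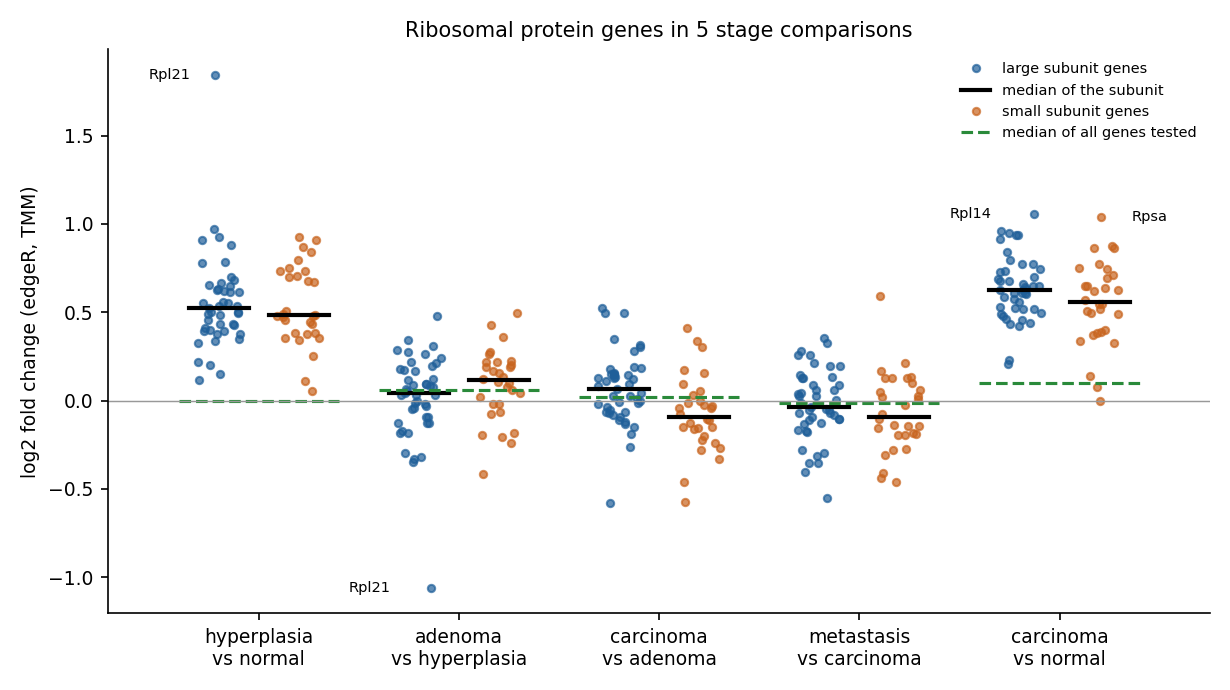
Log2 fold change of each of the 75 genes in 5 stage comparisons, large subunit in blue and small in orange, with black bars at subunit medians and a green dashed line at the median of all genes tested. All points of hyperplasia against normal gland lie above 0 (medians 0.53 and 0.48), and the medians of the next 3 comparisons lie between -0.09 and 0.11.

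Over the 5 stages together, 0 of 75 genes passed edgeR's test of any stage difference, against 3.58% of all genes tested, and DESeq2 (2.19%) and limma voom (1.78%) called 0 as well. An unadjusted p under 0.05 was reached by 2 genes, Rpl21 and Rpl10a, beside 20.9% of all genes. The smallest adjusted p of the family was 0.173. Tests of this size still have limits, since the median standard error of a member's log2 fold change was 0.43 in hyperplasia against normal gland and 0.39 in carcinoma against normal gland. A difference of the size seen could not be told from the spread between patches.

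Position within the lesion made no difference that passed the test. In carcinoma, 6 core patches had 56386 ± 23955 and 3 border patches 56580 ± 15733 CPM (SD), and the median log2 fold change of core against border was 0.02, with 42 of 75 higher, against 0.15 over all genes. In adenoma, 3 core patches had 45294 (24), 50327 (25) and 64840 CPM (51), and 3 border patches 41424 (47), 66487 (48) and 55900 CPM (36); the median was -0.10 with 30 of 75 higher, against 0 over all genes. In the lung, 4 border patches had 52004 (40), 43383 (56), 76814 (57) and 47623 CPM (58) and 3 centre patches 52818 (02), 47264 (42) and 53105 CPM (27); the median of border against centre was 0.08 with 45 of 75 higher, against 0.30 over all genes. No member was called in these 3 comparisons by edgeR, against 0.00% of all genes tested in each. DESeq2 also called none, against 2.12, 6.18 and 4.27% of all genes, and limma voom none, against 0.0220, 0.154 and 0.0529%. None had an unadjusted p under 0.05 by edgeR, beside 5.63, 9.45 and 8.71% of all genes. In adenoma the direction turned with the scaling, to 57 of 75 higher and a median of 0.35 with upper quartile scaling, and to 7 higher and -0.33 with total counts. In the lung it turned to 14 higher and -0.23 with total counts, where the median of all genes was 0 in place of 0.30. Without metastasis 57 it was -0.15, where that of all genes was 0.22. In carcinoma it turned to -0.15 without carcinoma 07, where that of all genes was 0.13. In the lung and in carcinoma the family median lay below that of all genes in these runs and in the main fit. The largest differences were those of Rps2 (-1.42 ± 1.30) and Rps16 (-1.11 ± 0.65) in adenoma core against border. Over the 75 genes the difference between the core-to-border contrasts of carcinoma and adenoma had a median of 0.09, and none passed the test of that difference, against 0.00% of all genes tested, or had an unadjusted p under 0.05, beside 8.77%.

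The balance of the subunits varied little. The ratio of large to small subunit counts ran from 1.16 in adenoma 51 to 1.52 in metastasis 57. It was 1.32, 1.24 and 1.25 in normal 18, 28 and 30, and 1.26, 1.34, 1.43, 1.34 and 1.36 in hyperplasia 21, 44, 22, 33 and 46. The stage means were 1.27 ± 0.043 (SD, n = 3), 1.34 ± 0.060 (n = 5), 1.27 ± 0.067 (n = 8), 1.36 ± 0.101 (n = 9) and 1.40 ± 0.088 (n = 7) from normal gland to metastasis. The stages overlapped, and all stage means lay within 1.27 and 1.40. Between single libraries the ratio ran from 1.16 to 1.52, while the family sum varied 3.68 times. Unlike the sum, the ratio does not depend on how libraries are scaled. In metastasis the lung border patches had 1.44 ± 0.086 (n = 4) and the lung centre patches 1.35 ± 0.072 (n = 3). No test of the ratio was made.

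Scaling each library by its summed ribosomal protein counts, in place of TMM, sets each gene against the rest of the family. By edgeR's test of any stage difference on that scale, 0 of 75 were called, against 4.82% of all genes tested, and none had an unadjusted p under 0.05, beside 21% of all genes. The 5 genes of smallest p in that edgeR test were Rpl10a (adjusted p = 0.312), Rpl21, Rpl19, Rpl38 and Rps21. Relative to the family, the log2 fold change of carcinoma against adenoma was 0.46 ± 0.20 for Rpl10a, 0.50 ± 0.19 for Rpl19 and 0.55 ± 0.25 for Rpl38. Rps21 had -0.56 ± 0.21 in carcinoma against normal gland, and Rpl21 had 1.14 ± 0.54 in hyperplasia against normal gland, with the high value of hyperplasia 22 described above.

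Libraries of 1 stage differed in ribosomal protein genes less than in other genes above the same lower limits of level. Levels above a limit were not matched between members and other genes. Among genes of at least 100 CPM, the median within-stage SD of log2(CPM + 1) was 0.49 for 67 members and 0.81 for 1181 other genes. At 500 CPM or more it was 0.50 (41 members) against 0.63 (86 others), and at 1000 CPM or more 0.49 (20) against 0.71 (32). These are descriptions over genes that share libraries. Much of the members' spread was common to them: as a share of the family's counts the SD was lower than that of the level in 71 of 75 genes, with a median of 0.32 against 0.51. Rplp0 kept the steadiest share, with an SD of 0.15 on the log2 scale, followed by Rpl37 with 0.20 and Rpl41 with 0.21. By level, Rpl41 (0.33), Rpl24 (0.34) and Rps19 (0.38), a small subunit gene known from Diamond-Blackfan anaemia, were the steadiest, and Rps23 (0.86), Rps2 (0.82) and Rpl28 (0.81) the least steady. Counts of the last 3 were low.

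Members were also grouped by shared sequence, start site and chromosome. In hyperplasia against normal gland the 10 genes with under 50% of windows shared had a median of 0.43 and the other 65 a median of 0.50. In carcinoma against normal gland these were 0.68 and 0.61. The 26 genes with a run of 6 or more C or T at the start, such as Rps6 and Rpl13a above, had a median of 0.47 in hyperplasia against normal gland, and the 30 without, such as Rpl5 and Rpl41, one of 0.55. Members lie on 19 chromosomes, with 14 on chromosome 7 and 4 on the X, and the median in hyperplasia against normal gland was 0.57 for the X-linked 4 and 0.49 for the others. No test of these groupings was made.

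Several relatives lie outside the naming rule. Rack1, a small subunit protein and signalling scaffold, averaged 1022 ± 307 (SD, n = 3), 1187 ± 529 (n = 5), 1243 ± 243 (n = 8), 1420 ± 448 (n = 9) and 1636 ± 384 CPM (n = 7), in the order of the stages. Rps27l, a paralogue of Rps27 known as a p53 target, had 376 ± 80.0, 1216 ± 599, 1172 ± 220, 877 ± 529 and 822 ± 374 CPM. Of 12 such genes tested, 9 were higher in hyperplasia than in normal gland, with a median of 0.30, and 0 were called in any pair of stages by edgeR.

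Among them only Rpl39l passed edgeR's test of any stage difference (adjusted p = 0.0175), and nearly all of its counts lay in 1 library. Rpl39l is a retrocopy of Rpl39 known from the testis. It had 1348 counts (143 CPM) in adenoma 36, 29 in normal 28, 8 in adenoma 47, 1 in normal 18, 1 in metastasis 56 and 0 in the other 27 libraries. Rpl39 itself had 12593 counts in adenoma 36. The coding sequences, each of 156 bases and without gaps between them, are shown because they bear on whether reads of the pair could be told apart; the 23 bases that differ are in capitals (identity 85.3%, longest identical stretch 38 bases).
Rpl39: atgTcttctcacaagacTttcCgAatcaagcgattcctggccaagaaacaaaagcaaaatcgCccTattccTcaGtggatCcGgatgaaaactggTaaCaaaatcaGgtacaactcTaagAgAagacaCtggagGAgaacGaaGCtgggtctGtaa
Rpl39l: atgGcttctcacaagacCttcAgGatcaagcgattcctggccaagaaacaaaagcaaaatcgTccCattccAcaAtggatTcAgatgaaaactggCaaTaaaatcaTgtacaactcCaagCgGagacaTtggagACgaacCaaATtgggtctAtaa
The coding sequence of Rpl39 spans chrX:37082701-37085127 (minus strand, introns included) and that of Rpl39l chr16:10174310-10174465 (plus strand) in GRCm38. Metastasis 02 had 28789 counts of Rpl39, the most of any library, and 0 of Rpl39l. The source of the Rpl39l counts in adenoma 36 was not tested.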

How the data were processed

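The authors deposited 1 table of raw read counts per gene for 32 libraries made by a Smart-seq2 type protocol from laser-captured 7 µm cryosections. Per the submitters' processing notes, STAR and mm10 were used. Which program and annotation gave the counts, whether strand was used and how multi-mapped reads were handled is not stated in the labels, and there are no molecular identifiers. Of 24454 gene IDs, 24374 were matched to a symbol and 80 were not. Each library was put in its stage and position by its labels.

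Genes were filtered with edgeR's filterByExpr, and 19907 were tested between stages and 22676 between positions. The main test was edgeR 4.0.16 (quasi-likelihood, TMM, R 4.3.3) over all libraries, with Benjamini-Hochberg adjustment over all genes and a threshold of 0.05. DESeq2 1.42.0, limma 3.58.1 (voom), other scalings, no filter, detected genes as a covariate, leaving out libraries and leaving out the gene ID of highest share were alternatives. The fits were tested on simulated data with known changes between carcinoma and adenoma. Those changes were much larger than the family medians given here, so the simulation does not show whether changes of that size would be found. SDs of single genes are of log2(CPM + 1) within stages. CPM per kb uses, for each gene, the shortest annotated protein-coding transcript whose coding sequence is as long as that of the transcript marked as principal. The values depend on that choice of transcript. Start windows and coding sequences come from RefSeq (GRCm38.p6) and the supplied annotation. No library pair held identical values (0 of 496). Named genes are any member called, the 4 large and 4 small subunit genes of highest mean CPM, the 3 of largest and 3 of smallest fold change, the 3 of lowest and highest within-stage SD, the 5 of smallest p relative to the family, and Rplp0, Rplp1, Rplp2, Rpsa, Rps6, Rps3, Rpl5, Rpl11, Rpl10, Rps4x, Rps27a and Rpl39; of these, those that carry a result are printed. Any other member named was picked once its values had been seen. The members and all gene lists were chosen with earlier results of these data known. The depth was 2688611 to 19585351 counts per library. Some items are not reported here.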

Additional observations from a re-analysis of the deposited data

Results flagged for a closer look

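Among 24 measures in the 4 stages of 5 to 9 libraries, 96 groups in all, 16 held a library that stood apart from the others of its stage by Dixon's ratio, where chance flags about 1 in 20 groups and the measures share libraries. Metastasis 57, a lung border patch, was high for the summed family (76814 CPM, next 53105), its large subunit part (46363 CPM) and its small subunit part (30451 CPM). The same library was high for Rpl32 (2774 CPM), Rpl41 (3317 CPM), Rplp0 (2164 CPM), Rplp1 (3944 CPM) and Rps24 (1996 CPM). Carcinoma 07, a core patch, was high for Rpl13a (5037 CPM, next 2700.3), Rplp1 (6297 CPM), Rplp2 (2873 CPM, next 1183) and Rps15 (5383 CPM, next 2248). Adenoma 51 was high for Rps15 (2406 CPM) and Rps24 (3230 CPM, next 2000 CPM). Hyperplasia 33 was low for Rpl39 (555 CPM, next 1231) and Rps3 (475 CPM, next 775).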

How the results depend on the processing

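No member was called under any alternative run, with the libraries left out in turn included. No paired analysis was possible because the replicate numbers in the labels are unique to each patch. The median log2 fold change of the 75 genes moved to 0.11 in hyperplasia and 0.18 in carcinoma against normal gland with DESeq2's size factors (0.11 and 0.18 by DESeq2 itself). With those size factors the medians of all genes moved as well, from 0 to -0.35 and from 0.10 to -0.31. In adenoma core against border the family median moved to 0.35 with upper quartile scaling, where that of all genes stayed at 0. The cause of that move was not tested. The summed level in normal gland was 46638 CPM with DESeq2's size factors. Without the gene ID of highest share the stage means were 62054, 68916, 76061, 79867 and 72689 CPM from normal gland to metastasis, since the total was then smaller. Of 1900 values of named genes under other settings 1778 lay within 1 standard error, and of 2078 with a library left out 2046.

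With each library left out in turn, the median ranged from 0.25 to 0.74 in hyperplasia against normal gland, -0.05 to 0.24 in adenoma against hyperplasia, -0.15 to 0.06 in carcinoma against adenoma, -0.13 to 0.09 in metastasis against carcinoma and 0.42 to 0.87 in carcinoma against normal gland. For positions it ranged from -0.15 to 0.27 in carcinoma, -0.24 to 0.06 in adenoma and -0.15 to 0.16 in the lung. The level of genes with near-identical copies depends on a counting step not given in the sources used here.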
